A study of Mus musculus with 10 samples.

Results

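The long RNA table of the developing mouse heart listed 35299 transcribed loci by genome interval, of which 8534 carried no UCSC transcript identifier. Those without an identifier that reached at least 1 FPKM (fragments scaled for transcript length and for library depth) at 1 or more of 5 stages were taken as the members described here. They numbered 1293. At the same minimum the table held 13809 loci with an identifier, so the members made up part of 15102 expressed loci. The members nearest to the minimum had highest values of 1.00063, 1.00219 and 1.00232 FPKM, and the loci just outside it 0.998994, 0.998589 and 0.998568 FPKM. The 5 stages were embryonic day 10.5 (E10.5), E14.5, E17.5, the newborn and the adult, all C57BL/6 hearts with no genetic change or treatment named in the labels. Long RNA and small RNA were sequenced once per stage, so no replicate spread exists, no difference was tested, and "higher" and "lower" describe these libraries. The labels give the source as heart tissue and the cell type as cardiomyocyte, and the values are described as those of heart tissue. In such bulk samples, fewer cells of a type and less RNA per cell cannot be told apart.

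Assembly of RNA reads into transcript models yields models that match an annotated transcript and models that match none. The second kind is known to include long non-coding RNAs, RNA transcribed from enhancers, unannotated exons and transcript ends of known genes, pieces of introns, repeats and small structural RNAs. Long non-coding RNAs are known for expression that is lower and more restricted in tissue and time than that of coding genes, and several act in heart development. Which of these kinds a member belongs to cannot be read from the table, which pairs neither members nor identifiers with gene symbols. The members are therefore named by their intervals, in mouse build mm9 per the submitters' processing notes and as the table lists them.

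The 5 libraries differed in depth. From the steps between the lowest FPKM values, the number of fragments behind the scaling was lowest in the adult library, at 1.48e+07. The libraries of E10.5, E14.5, E17.5 and the newborn had 1.91e+07, 2.00e+07, 1.89e+07 and 1.89e+07. A single fragment in a locus of 1000 bases was thus worth 0.0658 to 0.0696 FPKM in the first 4 libraries and 0.0896 FPKM in the adult. The miRNA libraries of the same stages were used to check the tissue label. Heart muscle miRNAs were miR-1a-3p, miR-133a-3p, miR-208a-3p, miR-208b-3p and miR-499-5p, and all 5 were present at every stage. Their counts scaled to the library total (CPM) summed to 51949 in the E10.5 library and 242063 in that of the adult. The sum was mostly miR-1a-3p, at 42165 and 224767 CPM. miR-133a-3p, miR-208a-3p and miR-499-5p were also higher in the adult than at E10.5, while miR-208b-3p went from 704 to 24.3 CPM. The highest value of miR-499-5p was that of the newborn, at 6441 CPM. Neural miRNAs (miR-9-5p and miR-124-3p) summed to 13037 CPM in the newborn against 405 to 837 CPM at the other stages. Nearly all of the newborn sum was miR-9-5p, at 13011 CPM. In the newborn miR-124-3p was at 26.5 CPM, against 1.47 to 3.05 CPM at the other stages. The liver miRNA miR-122-5p lay between 33.3 and 894 CPM, the erythroid pair miR-451a and miR-144-3p summed to 103 to 339 CPM, and the lymphoid miR-150-5p lay between 9.73 and 101.4 CPM. In the E10.5 long RNA library 1 locus with an identifier was listed at 5711970 FPKM, while the highest value of any locus at the other stages, 314714 FPKM, belonged to a member.

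Members either shared an interval exactly with another locus or shared no base with any. The table's 35299 loci fell into 28423 distinct intervals, of which 0 neighbouring pairs shared a base and 7 ended and started at the same position. The 1293 members sat in 981 of these intervals. An identifier locus was listed at the identical interval for 321 members (24.8%), while 972 (75.2%) shared no base with any identifier locus. None lay inside, contained or partly crossed an identifier locus. Of the 972, 748 were alone in their interval and 224 shared it with other loci that lack an identifier. Loci of 1 interval are listed with the same start and end, so for shared intervals the span is that of the bundle and not of a transcript, and such members are not independent of each other.

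The span of the listed interval separated the 3 classes. The median over all members was 8552 bases (quartiles 1213 and 79889, range 158 to 696380). It was 1450 bases for members alone in their interval, 36440 for those beside other unidentified loci and 163709 for those beside an identifier locus. Identifier loci alone in their interval had a median of 25674 bases, and unidentified loci under the minimum one of 1592. Only 10 members spanned under 200 bases and 63 under 400, all of them alone in their interval. Values of such short loci rest on few bases: at about 300 bases of span (285 to 313, depending on the library) a single fragment equals 1 FPKM.

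**Figure D1:**
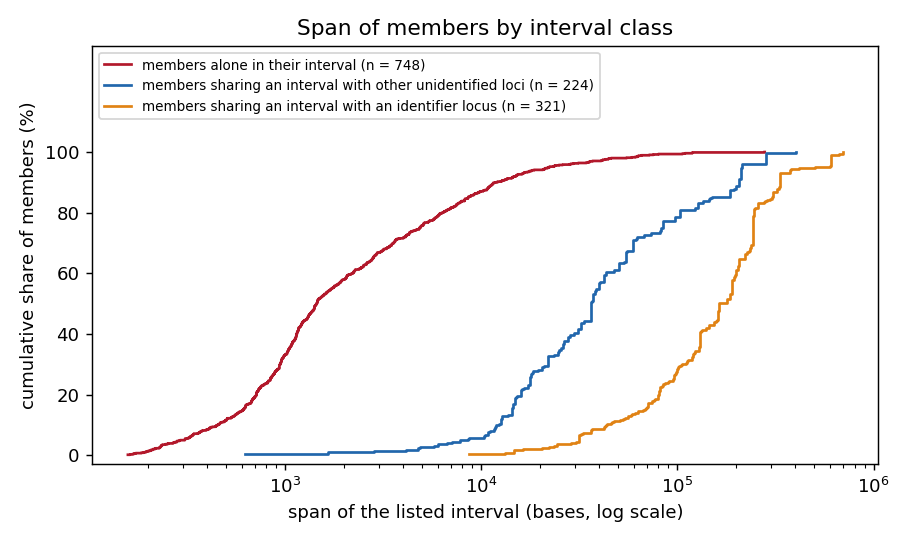
Cumulative share of members (percent) against the span of the listed interval (bases, log axis), 1 line per interval class. The median is 1450 bases for the 748 members alone in their interval, 36440 for the 224 beside other unidentified loci and 163709 for the 321 beside an identifier locus.

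For the 972 members with no identifier locus at their interval, the gap to the nearest identifier locus had a median of 10759 bases (quartiles 1380 and 37723) and ran from 18 to 1.62378e+06 bases. Of these members, 219 (22.5%) lay within 1 kb of an identifier locus and 122 (12.6%) lay 100 kb or more from any. The table therefore held members that border a known transcript as well as members far from one.

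Many members alone in their interval had values that correspond to whole fragments over the full span. Of 748 such members, 685 spanned at least 400 bases, the shortest span at which fragments were counted back. For 466 of these (68.0%) the FPKM came out as whole fragment numbers at all stages, within 0.05 of a whole number, if the full span was taken as the transcript. The same held for 117 of 8118 identifier loci alone in their interval (1.44%). By span the share was 89.7% of members from 400 to 1000 bases, 87.6% from 1000 to 2000, 75.2% from 2000 to 4000, 55.4% from 4000 to 8000 and 8.26% above. The values of short members were thus mostly those of a locus whose full span counts as its length, and those of wide members mostly were not. In their highest stage the 466 members had a median of 31 fragments (4 to 3412), and 153 of them had fewer than 20 at every stage.

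Levels were low. The highest FPKM of a member over the 5 stages had a median of 1.80, against 12.5 for identifier loci. Of the members, 731 stayed under 2 FPKM, 1108 under 5, and 77 (5.96%) reached 10, a level that 56.6% of identifier loci reached. In the order of the stages, the median FPKM of all members was 0.492, 0.556, 0.592, 0.865 and 1.37. Since 470 members reached the minimum in the adult alone and 56 at E10.5 alone, the rule that chose the members itself raises the adult median, and nothing is read from this order. Identifier loci, of which 76.8% reached 1 FPKM at all 5 stages, had medians of 7.92 to 8.41 FPKM.

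A single short member held nearly all of the members' summed FPKM. The member at chr9:78023097-78023440, 343 bases wide, was listed, from the youngest to the oldest stage, at 263162, 308290, 291528, 314714 and 201193 FPKM. It was the highest of all loci in the table at the 4 later stages, and the members together held 31.3%, 29.2%, 32.7% and 21.2% of the summed FPKM there, against 3.98% at E10.5, where the locus at 5711970 FPKM enlarged the sum. The identifier locus nearest to it, 280 bases away, lay between 0.962 and 1.84 FPKM. The second highest member, chr17:39979940-39985776, spanned 5836 bases and had 1755, 885, 927, 930 and 931 FPKM in the order of the stages. Its E10.5 value stood apart from 4 nearly equal later values. The third, chr6:49186443-49186616, had 756, 328, 122, 158 and 679 FPKM over 173 bases and was high at both ends of the series. All 10 of the highest members were alone in their interval, 6 spanned under 400 bases, and 3 were listed at 0 at some stage.

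The remaining 7 of the 10 highest showed no common profile. At chr10:45595527-45595886 the values were 45.4, 70.5, 94.7, 89.4 and 136 FPKM, lowest at E10.5 and highest in the adult. At chr3:5860332-5860778 they were 94.9, 37.96, 38.3, 27.5 and 66.3 FPKM, and at chr6:3150766-3151670, the only one of the 10 with whole fragment numbers, 75.0, 33.5, 35.0, 22.1 and 34.6 FPKM. Both were highest at E10.5 and lowest in the newborn. The member chr15:58679221-58679379 spans 158 bases and read 299, 0, 76.9, 88.4 and 231 FPKM, listed at 0 in the library with the greatest depth. The others, chr16:90342375-90342565, chr2:173872641-173872811 and chr3:63285052-63287888, appear below with the comparisons that name them.

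Members were unevenly spread over the chromosomes. Chromosome 9 held 122, which was 13.6% of the 900 expressed loci listed there, followed by chromosomes 13 (12.3%), 19 (10.8%), 3 (10.4%) and 12 (10.3%). The X chromosome held 20 (4.25% of its expressed loci), chromosome 11 69 (5.73%) and chromosome 7 66 (6.12%). Chromosome 18 held 27, and 0 members lay on the Y chromosome or the mitochondrial sequence. Much of the count on chromosome 9 came from 1 stretch: the 122 members sat in 78 intervals, and 71 remained without the run described next.

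Members clustered along the chromosomes. With gaps of up to 10 kb joined, they formed 775 runs, of which 195 held at least 2 members (713 members) and 39 at least 5 (334 members). The longest run, at chr9:13217524-13517807, held 51 members in 22 intervals. Its median FPKM over the 5 stages was 3.49, 2.48, 2.05, 2.28 and 1.68. Of the 51, 45 were highest at E10.5. Between E10.5 and the adult, 14 were lower by 2-fold or more and 0 were higher, where 16.8% of all expressed loci were lower and 20.5% higher. The counts of the runs given next stand against the same shares. Both identifier loci in its intervals were also highest at E10.5, at 10.7 FPKM against 6.67 in the adult for one and 2.84 against 2.41 for the other.

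A pair of runs held 15 members each, all in 1 interval, and they differed in profile. At chr13:12794428-12924276 the median was 2.77, 2.78, 3.16, 2.83 and 2.34 FPKM, and 0 members differed 2-fold between the adult and E10.5. At chr6:31013725-31348759 the median was 0.172, 0.0895, 0.0955, 0.243 and 4.45 FPKM, and all 15 were at least 2-fold higher in the adult. Of the 3 identifier loci at the chr6 interval, one went from 0.188 FPKM at E10.5 to 24.3 in the adult, another from 1.23 to 40.3 and the last from 0.521 to 1.86. The adult values of the chr6 members, 1.24 to 9.46 FPKM, lay below those of the first 2 identifier loci beside them. A run of 14 on chromosome 11 (chr11:64990071-65179419) had its highest median in the newborn, at 2.04 FPKM, with 10 members highest there. Another, chr3:115185919-115344692, held 13 members in 11 intervals with 0 identifier loci among them. Its median was 0.0742, 0.201, 0.452, 1.197 and 2.82 FPKM, higher at each later stage, and between E10.5 and the adult all 13 members were higher by 2-fold or more.

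**Figure D2:**
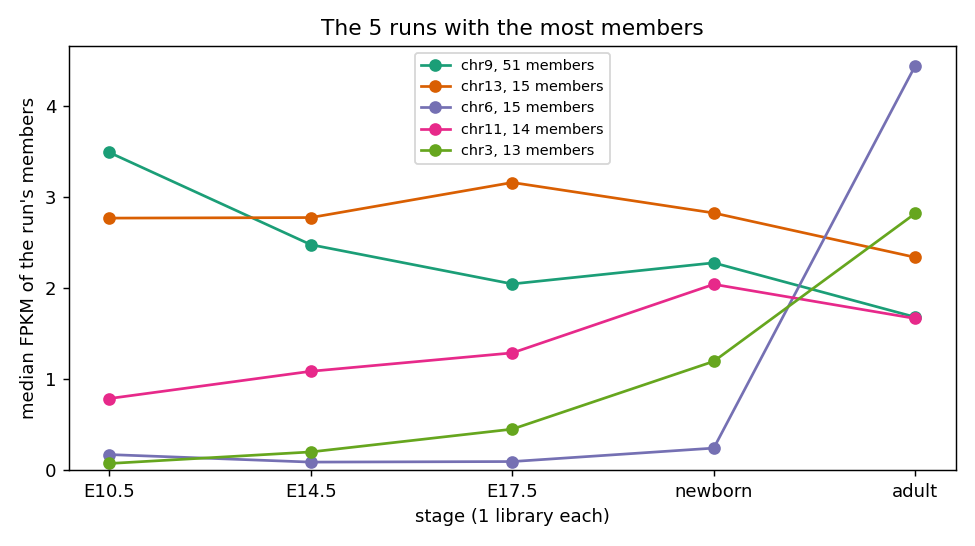
Median FPKM of the members of the 5 runs with the most members (vertical axis) at each stage (horizontal axis, 1 library each), 1 line per run. The chr6 run goes from 0.172 at E10.5 to 4.45 in the adult and the chr3 run from 0.0742 to 2.82, while the chr9 run goes from 3.49 to 1.68.

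The stage of the highest value is given as a description, since a member could enter through that stage alone. It was the adult for 669 members (51.7%), against 36.9% of all expressed loci. Highest at E10.5 were 225 (17.4%), against 32.1% of all, and highest in the newborn 240 (18.6%), against 11.5% of all. E14.5 was the highest stage for 72 and E17.5 for 87. The share highest in the adult was 69.2% among members beside other unidentified loci, 52.3% beside an identifier locus and 46.3% among those alone. The newborn's neural miRNA sum of 13037 CPM stands beside the newborn values, and its part in them was not tested. Restricting to members with whole fragment numbers gave 44.1% highest in the adult among the 313 with at least 20 fragments and 38.6% among the 153 with fewer. Members that reached 50 fragments had their highest value in the adult in 73 of 164 cases (44.5%).

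**Figure D3:**
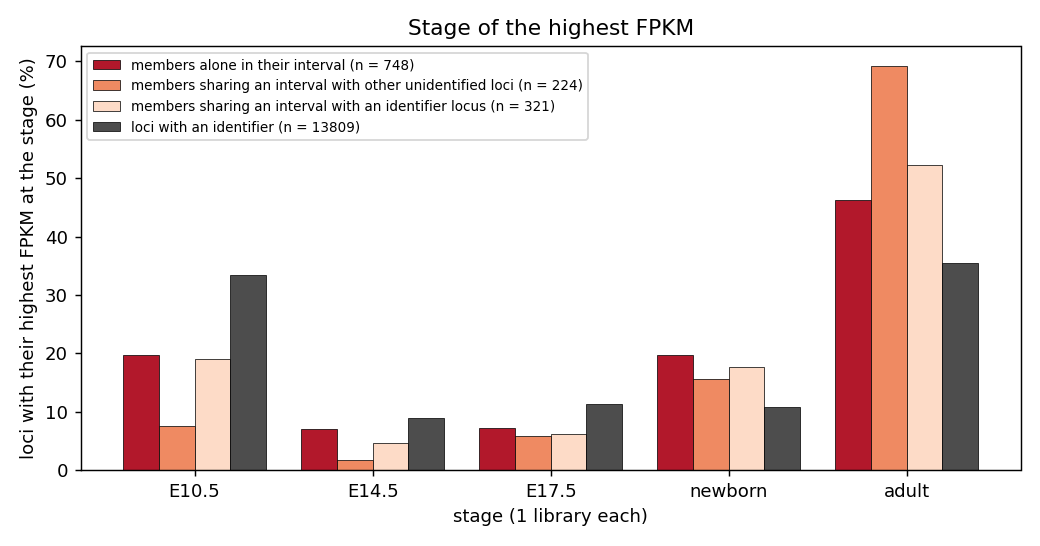
Share of loci (percent) whose highest FPKM lies at each stage, for the 3 classes of members and for loci with an identifier. Members exceed identifier loci in the adult, at 46.3%, 69.2% and 52.3% against 35.5%, and are fewer at E10.5.

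The adult share differed between chromosomes. On chromosomes 1 (75.3%) and 19 (75.4%) about 3 in 4 members were highest in the adult, against 29.5% on chromosome 9 and 2 of 20 on the X chromosome. Runs of members with 1 shared profile enter these shares, as on chromosome 9. So do members of 1 interval, with 77 members in 62 intervals on chromosome 1 and 57 in 38 on chromosome 19. Members could also enter through the adult alone. All expressed loci were not divided this way, so nothing is read from these differences.

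Members were also confined to fewer stages. Of the 1293, 688 (53.2%) reached 1 FPKM at 1 stage only, against 11.9% of all expressed loci, and 215 (16.6%) did so at all 5, against 71.6%. The single stage was the adult for 470, the newborn for 103, E10.5 for 56, E17.5 for 33 and E14.5 for 26. Because the members' levels lie close to the minimum, this count reads the minimum as well as the profile: among members that reached 10 FPKM the share at 1 stage only was 9.09%, against 0.469% of all loci at that level. FPKM was higher at each of the 4 steps for 110 members (8.51%, against 10.2% of all loci) and lower at each for 40 (3.09%, against 12.2%). Exact zeros were listed for 229, 196, 159, 114 and 75 members in the order of the stages, and 68 members were at 0 at 4 stages. Since 470 members entered by reaching the minimum in the adult alone, nothing is read from the order of these zeros.

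More members were higher than lower in the adult against E10.5, and the choice of members enters this count, as 470 of them reached the minimum in the adult alone and 56 at E10.5 alone. By the rule of size used here, a difference of at least 1 in log2(FPKM + 1), 479 members (37.0%) were higher in the adult and 95 (7.35%) lower, against 20.5% and 16.8% of all expressed loci. The median difference was 0.61 over the members and 0.00 over all loci. Of the members past the limit 83.4% were higher, against 54.9% of all loci past it. With a mean of at least 1 FPKM over the stages as the minimum, 28.2% of the members kept were higher and 14.2% lower, against 19.4% and 18.01% of all loci so kept. The scale understates differences of low loci. A pseudocount of 5 left 4.72% of members higher and 1.24% lower, against 11.1% and 8.65% of all loci, so that the members' higher share was then the smaller one. Scaling each column by its median ratio over 18359 loci left 36.1% of members higher and 7.42% lower, against 20.0% and 17.2% of all loci. The split changed under another scaling. With mitochondrial loci left out and the columns rescaled, 820 members were higher (63.4%, against 75.2% of all loci) and 4 lower. The median difference was then 1.15 over the members and 1.83 over all loci, since the locus at 5711970 FPKM then sets the E10.5 scale. Leaving out the loci over 10000 FPKM too, a setting chosen after seeing the data, gave 412 higher and 112 lower (31.9% and 8.66%, against 18.02% and 19.1% of all loci).

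The shares were also taken by level, that is by the highest FPKM over the 5 stages, the value the entry rule used. The minimum was reached in the adult alone by 470 of 1293 members and by 412 of 13809 identifier loci. The choice of loci therefore enters these shares too. Among loci with a highest value of 1 to 2 FPKM, 31.3% of members and 9.56% of identifier loci were higher in the adult than at E10.5. From 2 to 5 FPKM the shares were 43.8% and 16.2%, from 5 to 10 FPKM 50% and 14.3%, and at 10 or more 40.3% and 22.9%. The lower shares were 3.28%, 11.4%, 12.96% and 18.2% for members and 11.1%, 16.2%, 20.1% and 18.7% for identifier loci. Members with whole fragment numbers had 114 higher (24.5%) and 44 lower (9.44%), and the 219 others of at least 400 bases had 100 higher (45.7%) and 18 lower (8.22%). The higher share was larger among the members without whole numbers, whose median span was 8227 bases against 1206.

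The size of this share differed by distance from known transcripts. Members could enter through the adult alone, so the choice of members enters these shares too. The share highest in the adult was 42.5% within 1 kb and 76.2% at 100 kb or more. All loci were not divided by distance, and the part of the entry rule in the difference was not tested. Among members within 1 kb of an identifier locus 50 of 219 (22.8%) were higher in the adult, from 1 to 10 kb 60 of 253 (23.7%), from 10 to 100 kb 167 of 378 (44.2%) and at 100 kb or more 89 of 122 (73.0%). The shares that were lower were 9.13%, 9.49%, 8.47% and 2.46%. Members at an identifier locus' own interval had 113 of 321 higher (35.2%) and 4.98% lower. With a minimum of 2 FPKM, chosen after seeing the data, the higher share was 37.1% within 1 kb and 73.8% at 100 kb or more, so the share of the nearest members depends on the minimum. Taking 1 member per interval gave 20.5% within 1 kb and 67.6% at 100 kb or more. The span and level were not the same in the bins, with a median span of 1923 bases within 1 kb and 5144 at 100 kb or more and median highest values of 1.78 and 2.00 FPKM, and their part in the difference was not tested.

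**Figure D4:**
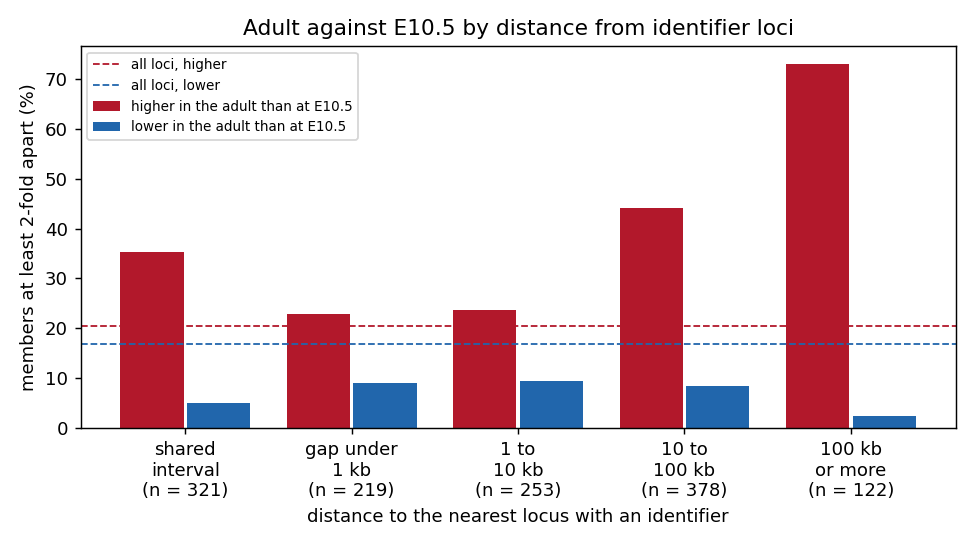
Share of members (percent) at least 2-fold higher (red) or lower (blue) in the adult than at E10.5 by distance to the nearest identifier locus, with the shares over all loci as dashed lines. The higher share goes from 22.8% within 1 kb to 73.0% at 100 kb or more, against 20.5% of all loci, which were not divided by distance.

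The members higher in the adult were also divided by the step with the largest gain. Of the 479 members higher in the adult, in 348 intervals, the largest of the 4 steps was newborn to adult for 383 (79.96%), E17.5 to newborn for 49, E10.5 to E14.5 for 32 and E14.5 to E17.5 for 15. Among identifier loci higher in the adult the newborn to adult step was the largest for 69.5%. As 470 of the 1293 members reached the minimum in the adult alone, the choice of members enters the 79.96%. Of the 95 lower members the newborn to adult step was the largest drop for 49 (51.6%) and the E10.5 to E14.5 step for 26 (27.4%). Among identifier loci lower in the adult these shares were 68.5% and 17.8%.

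Among the 67 members with at least 10 FPKM in either stage, 30 were higher in the adult than at E10.5 and 14 lower, while of all loci at that level 23.5% were higher and 18.8% lower. The 10 with the largest higher differences all spanned at least 400 bases, and the nearest identifier locus was 100 kb or more away for 5 of them. The largest was chr3:63285052-63287888, listed at 0 in the 4 libraries from E10.5 to the newborn and at 59.3 FPKM in the adult. It is a single-library value with no fold. Its nearest identifier locus, 95156 bases away, was at 4.30 FPKM at E10.5 and 3.87 in the adult. At chr10:56687347-56702278 the values were 0.0948, 0.242, 0.669, 1.62 and 29.2 FPKM, and at chr12:16143267-16228117 0.0355, 0.211, 0.416, 4.77 and 23.4 FPKM. Both were higher at each later stage, shared their interval with other unidentified loci, and had their nearest identifier locus 492125 and 248306 bases away, at 0 to 0.130 FPKM in each library.

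A pair of the 10 had whole fragment numbers, so counting error could be given. At chr14:32928485-32935983 the values were 0.231, 8.76, 24.9, 8.75 and 27.5 FPKM, from 32, 1270, 3412, 1202 and 2954 fragments. The adult level was 119-fold that at E10.5 (exact 95% interval 84.2 to 174, counting error only), but most of this was reached by E17.5, and the newborn was lower than both neighbours. At chr5:51836271-51844103 the values were 0.683, 0.482, 0.642, 3.79 and 27.1 FPKM, from 99, 73, 92, 545 and 3045 fragments. It was low until E17.5 and 39.7-fold higher in the adult than at E10.5 (32.5 to 49.0). This member lies 178 bases from an identifier locus that went from 13.8 FPKM at E10.5 to 106 in the adult.

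The others of the 10 had 14.4 to 21.7 FPKM in the adult. At chr14:51508257-51517386 the values were 0.0502, 0.0478, 0.0253, 0.430 and 21.7 FPKM, low in every library before the adult. At chr13:103119611-103130951 they were 0.0792, 0.297, 0.293, 1.80 and 17.5 FPKM, and at chr8:41209920-41231045 0.0743, 0.443, 1.23, 3.52 and 16.1 FPKM. The chr8 member differed from the chr14 one in a steady gain over all steps. The last ones were chr4:3127074-3127483, listed at 0.317, 0, 0, 7.54 and 19.4 FPKM over 409 bases, and chr12:71750639-71798347, at 0.0141, 0.117, 0.230, 0.683 and 14.4 FPKM.

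**Figure D5:**
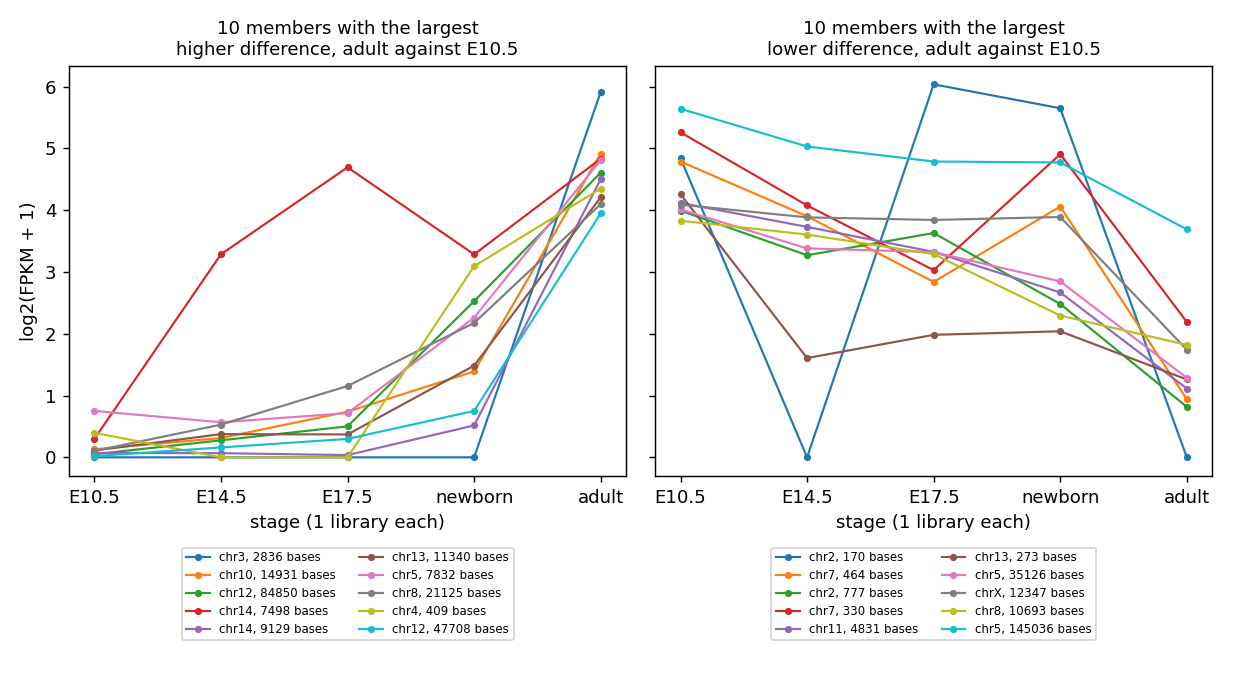
log2(FPKM + 1) at each stage (1 library each) for the 10 members with the largest higher difference (left) and the 10 with the largest lower difference (right) between the adult and E10.5, among members with at least 10 FPKM in either stage. The left lines mostly lie low until the newborn and the right lines differ in shape, with the 170-base member on chromosome 2 listed at 0 at E14.5 and in the adult.

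The members with the largest lower differences included 3 with spans under 400 bases. The largest was chr2:173872641-173872811, 170 bases wide, with 27.7, 0, 64.7, 49.2 and 0 FPKM. It was highest at E17.5 and listed at 0 at E14.5 and in the adult, so it followed no order of age. A pair on chromosome 7 lie near each other, chr7:55380415-55380879 with 26.6, 14.0, 6.16, 15.7 and 0.920 FPKM and chr7:55387304-55387634 with 37.3, 15.9, 7.17, 29.0 and 3.57 FPKM. Both were highest at E10.5, had a second high value in the newborn and were lowest in the adult. The identifier locus nearest to both was listed at 0 at all 5 stages.

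Of the 10 lower members, 2 had whole fragment numbers. At chr11:102464889-102469720, 4831 bases wide, FPKM was 16.4, 12.3, 9.02, 5.36 and 1.16, from 1433, 1125, 783, 466 and 79 fragments. It was lower at each later stage, and the E10.5 level was 14.1-fold the adult level (11.2 to 17.9). At chr2:174091769-174092546 FPKM was 14.9, 8.65, 11.4, 4.59 and 0.763, from 151, 93, 117, 47 and 6 fragments, and the E10.5 level was 19.6-fold the adult level (8.78 to 54.2). The identifier locus closest to the chr11 member, 6288 bases away, was also highest at E10.5, at 1.95 FPKM, and lowest in the adult, at 0.09225.

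The other members on the lower side had these values. chr5:67783285-67818411 had 15.1, 9.42, 9.01, 6.19 and 1.44 FPKM, lower at each later stage. chr13:108679804-108680077, 273 bases wide and 132 bases from an identifier locus, had 18.1 FPKM at E10.5 and 1.40 to 3.11 afterwards. chrX:131219725-131232072 stayed at 13.3 to 16.03 FPKM until the newborn and was at 2.35 in the adult, chr8:124356746-124367439 went from 13.2 at E10.5 to 2.53 in the adult, and chr5:36943132-37088168 from 48.9 to 11.9. For these 3 the sign of the log2 difference, -2.35, -2.01 and -1.95 as deposited, turned to 0.05, 0.32 and 0.73 when mitochondrial loci were left out and the columns rescaled. For 5 others, chr2:174091769-174092546, chr7:55387304-55387634, chr11:102464889-102469720, chr13:108679804-108680077 and chr5:67783285-67818411, the same rescaling left differences of -0.82, -0.44, -0.61, -0.57 and -0.36, short of the limit, so the folds of 14.1 and 19.6 given above hold for the columns as deposited. Only chr2:173872641-173872811 (-2.34) and chr7:55380415-55380879 (-1.32) of the 10 stayed past it. With median-ratio scaling all 10 stayed past the limit, at -3.02 for chr11:102464889-102469720 and -3.18 for chr2:174091769-174092546. The 3 that had turned sign were then at -2.36, -2.03 and -1.97. The wider chr5 member lies at the interval of an identifier locus that was at 26.4 FPKM at E10.5 and 52.6 in the adult, the opposite order.

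The adult was also set against the newborn, the step after birth. The choice of members enters these counts too, as 470 reached the minimum in the adult alone and 103 in the newborn alone. Members were higher in the adult in 321 cases (24.8%) and lower in 83 (6.42%), against 11.0% and 9.18% of all loci, with a median difference of 0.30 and one of 0.01 over all loci. Of the members past the limit 79.5% were higher, against 54.4% of all loci. Among the 313 members with at least 20 fragments 15.7% were higher and 6.71% lower, against 13.2% and 14.9% of the 114 identifier loci so counted. In the comparison with E10.5 the same members had 28.8% higher and 9.27% lower, against 21.1% and 21.1%. Only 117 of 8118 identifier loci had whole fragment numbers, so those 114 are a small part of them. With at least 10 FPKM in either stage, 25 of 63 members were higher than in the newborn and 11 lower, while of all loci at that level 13.04% were higher and 7.77% lower. Of the 10 with the largest higher differences, 6 also lead the comparison with E10.5. This comparison and that with E10.5 share the adult library.

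The 4 new names on the higher side were of unequal width. chr13:32792693-32872582, 79889 bases wide, had 0.0201, 0.153, 0.431, 0.460 and 11.8 FPKM, low before the adult. chr19:4820917-4821256 had 1.04, 1.89, 1.90, 1.46 and 17.1 FPKM over 339 bases, with nearly equal values before the adult. chr2:120454081-120454266 (11.2, 10.2, 0, 0 and 13.1 FPKM) and chr6:47730449-47730681 (7.28, 8.79, 2.03, 0 and 11.7 FPKM), both under 400 bases, were also detected at E10.5 and E14.5 at levels not far below the adult one. Both were listed at 0 in the newborn.

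On the lower side, members peaked in the newborn in several cases. chr16:5431294-5709971, 278677 bases wide, had 2.62, 7.07, 7.98, 15.9 and 4.10 FPKM, and chr6:134931747-134939974 had 2.69, 5.18, 6.86, 20.3 and 6.62 FPKM. Both were higher at each step to the newborn and then lower in the adult. chr7:17578484-17584495 had 17.5, 19.6, 20.0, 10.7 and 4.02 FPKM, even in the embryo and lower at the next 2 stages. The short members chr7:137978002-137978164 (0, 0, 45.1, 51.8 and 0 FPKM), chr4:62140712-62140915 (10.8, 0, 30.5, 19.3 and 6.39 FPKM) and chr16:90342375-90342565 (8.87, 56.7, 14.1, 94.9 and 20.9 FPKM) had no steady order. The 4 others were the chromosome 2, chromosome 7 and X chromosome members already given.

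The embryonic steps had small shares at the minimum of 1 FPKM, which depended on level. From E10.5 to E14.5, 38 (2.94%) were higher and 25 (1.93%) lower, against 4.37% and 1.72% of all loci. From E14.5 to E17.5, 24 were higher and 24 lower (1.86% each), against 1.51% and 1.36%. At the first of these steps the members' higher share was below that of all loci, and the other shares were slightly above. Among the 77 members with at least 10 FPKM at any stage the shares were 15.6% and 12.99% at the first step, against 4.57% and 1.53% of all loci at that level, and 11.7% and 10.4% at the second, against 1.69% and 0.850%. All 10 members with the largest differences from E14.5 to E17.5 spanned under 400 bases, and 7 of them were listed at 0 at some stage, such as chr4:69586914-69587205 with 0, 16.95, 0, 8.26 and 0 FPKM and chr4:11328214-11328381 with 27.5 FPKM at E17.5 and 0 elsewhere. A member with counted fragments and a fetal maximum was chr13:55285632-55290696, with 3.49, 14.5, 22.8, 7.89 and 5.22 FPKM. Its fragments numbered 321, 1396, 2080, 721 and 372, so it was lower in the newborn and the adult than at E14.5 and E17.5. chr15:68151108-68177163 had 7.14, 11.8, 16.9, 18.6 and 26.3 FPKM, and chr2:146059276-146337740 4.18, 11.4, 10.2, 15.0 and 19.9 FPKM. The chromosome 2 one shares its interval with an identifier locus that went from 11.6 to 43.9 FPKM. At chr15:52309305-52309931 the values alternated, at 15.6, 2.01, 13.04, 2.01 and 16.1 FPKM, and chr16:16623715-16623914 dipped at E17.5, with 49.6, 45.2, 15.0, 33.3 and 44.1 FPKM.

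Across birth, from E17.5 to the newborn, 75 members (5.80%) were higher and 26 (2.01%) lower, against 2.50% and 2.43% of all loci. The choice of members enters these counts too, as 103 reached the minimum in the newborn alone and 33 at E17.5 alone. The median difference was 0.14 over the members and -0.01 over all loci. With at least 10 FPKM at any stage the shares were 16.9% and 12.99%, against 2.36% and 2.59% of all loci. The neural miRNA sum of 13037 CPM in the newborn stands beside this, and its part was not tested. Depth was nearly equal in both libraries. A member with counted fragments, chr17:10389066-10392378, had 12.7, 6.78, 8.62, 21.4 and 12.7 FPKM, from 745, 416, 501, 1247 and 575 fragments. It peaked in the newborn and lies 186 bases from an identifier locus at 149 FPKM at E10.5 and 210 in the adult. On the lower side chrX:146919203-146924642 had 1.59, 5.59, 11.3, 2.10 and 1.31 FPKM, a fetal maximum, and its nearest identifier locus, 1230 bases away, had 76.9 FPKM at E17.5 and 18.5 in the newborn. Of the members named here, chr2:8963203-8963398 (17.3 FPKM) and chr19:33484702-33860199 (14.3 FPKM) had a value at E17.5 and were listed at 0 at the other 4 stages, as was the chr4 member at 27.5 FPKM given above.

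Members at the interval of an identifier locus were set beside it, as 321 pairs over 120 identifier loci. Where an interval held several identifier loci, the one with the highest mean FPKM was taken as the partner. The member's mean FPKM was a median of 8.98% of its partner's, and 11 members were above theirs. The choice of partner itself lowers both values. The log2 differences between the adult and E10.5 correlated across pairs with r = 0.68, a description over pairs that share intervals, libraries and partners. In 86 pairs both were higher in the adult, in 27 the member alone, in 26 the identifier locus alone, in 4 both were lower and in 159 neither differed. The member alone was lower in 12 and the identifier locus alone in 7, and 0 pairs differed in opposite directions. For reads that overlap both loci of a pair the authors' division of reads is not given, so the values of a pair may not be separate.

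Members off an identifier interval were also set beside the nearest identifier locus. The correlation of log2(FPKM + 1) over the 5 stages had a median of 0.51 within 1 kb (208 members), 0.45 from 1 to 10 kb (222), 0.40 from 10 to 100 kb (280) and 0.83 at 100 kb or more (57), counting neighbours that reached 1 FPKM. It was 0.64 for pairs at the identical interval. With 5 points per member these are descriptions. The medians went down from the identical interval to 10 to 100 kb, and the bin at 100 kb or more, with a value for 57 of its 122 members, broke that order.

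Few members were high throughout. Of the 14 that had at least 10 FPKM at every stage, the most even was chr6:112555246-112558896, at 17.5, 18.0, 20.1, 22.3 and 21.9 FPKM from 1138, 1226, 1298, 1440 and 1105 fragments. Its nearest identifier locus, 1922 bases away, went from 9.57 to 1.63 FPKM over the same stages. The next was chr8:4087276-4088679, at 14.3, 11.1, 11.6, 13.1 and 12.6 FPKM. The widest members without a shared identifier interval were chr2:47912124-48312868, 400744 bases, with 0.889, 1.23, 1.30, 1.31 and 1.68 FPKM, and a pair of members at chr4:38519146-38803069, an interval of 18 loci. The chr4 pair went from 0 and 0.0245 FPKM at E10.5 to 2.41 and 9.03 in the adult, and the nearest identifier locus was 594256 bases away.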

How the data were processed

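Long RNA values are FPKM per locus, as deposited by the authors, and the miRNA table holds counts in whole numbers, also as deposited, divided here by the library total to give CPM. HISAT, HISAT2, Bowtie, Bowtie2 and RSEM and build mm9 are named in the submitters' processing notes, without versions or roles. The long RNA library preparation, strand and whether miRNA reads or molecular identifiers were counted are not given in the sources used here. Table positions may count starts from 0.

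Groups were taken from sample titles. Members, lists and rules were chosen with earlier results of these data known. All loci with at least 1 FPKM at 1 of 5 stages entered each comparison, and a difference of at least 1 in log2(FPKM + 1) counted as higher or lower. No p-value is given for this rule of size, and 1 library per stage gives no measure of variation between animals.

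Fragment numbers were read from FPKM steps of loci alone in intervals of 800 to 4000 bases, where about 96% of values of up to 5 fragments came out whole within 0.05. Fold intervals (95%, exact, Clopper-Pearson) cover only the error of counting. The 49285 UCSC identifiers were looked up in the name tables and 0 matched.

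Named members were the 10 with the highest FPKM, the 10 that differed most, upward and downward, in either comparison with the adult and the 5 that did so at each remaining step (at least 10 FPKM in either stage), the 3 widest and 3 highest off identifier intervals, the 2 most even, and the 3 longest runs. The runs on chromosomes 11 and 3 were named after their values were seen. Chromosome 18 loci were counted and not named singly. Alternatives covered pseudocount, minimum, fold limit, scaling, span, overlap and the newborn library. Calculations used Python 3.11.15, pandas 2.3.3, numpy 2.4.6 and scipy 1.17.1, figures matplotlib 3.10.9, and scripts were tested on simulated data.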

Additional observations from a re-analysis of the deposited data

How the results depend on the processing

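No paired analysis was possible because each stage has 1 library per assay, so the groups share no more than the number 1, and no replicate could be left out. Shares below are percentages of members higher and lower by the 2-fold rule, in the order adult against E10.5, adult against newborn, E14.5 against E10.5, E17.5 against E14.5 and newborn against E17.5. The values as reported were 37.0 and 7.35, 24.8 and 6.42, 2.94 and 1.93, 1.86 and 1.86, and 5.80 and 2.01. With a pseudocount of 0.1 they were 52.7 and 18.0, 40.1 and 18.4, 16.2 and 10.2, 10.5 and 7.97, and 23.7 and 7.502. A pseudocount of 5 gave 4.72 and 1.24, 3.17 and 0.851, 0.387 and 0.773, 0.773 and 0.464, and 0.387 and 0.541. A 4-fold limit gave 7.19 and 1.31, 4.64 and 0.851, 0.387 and 0.619, 0.619 and 0.309, and 0.773 and 0.387. With no minimum, over 8534 loci, the shares were 5.61 and 1.11, 3.76 and 0.973, 0.445 and 0.293, 0.281 and 0.281, and 0.879 and 0.305. A minimum of 1 FPKM in either stage compared gave 43.8 and 8.68, 28.4 and 7.34, 6.75 and 4.44, 4.40 and 4.40, and 10.8 and 3.75, over fewer members in each comparison. A minimum of 10 FPKM at any stage left 77 members, with 40.3 and 18.2, 32.5 and 19.5, 15.6 and 12.99, 11.7 and 10.4, and 16.9 and 12.99. A mean of at least 1 FPKM over the stages gave 28.2 and 14.2, 17.5 and 10.5, 5.63 and 4.08, 3.88 and 3.30, and 9.71 and 3.88. Leaving out mitochondrial loci and rescaling gave 63.4 and 0.309 for the adult against E10.5 and 23.9 and 0.309 for E14.5 against E10.5, where the locus at 5711970 FPKM sets the E10.5 total. It turned the sign of 3 named members, to 0.051, 0.32 and 0.73. Median-ratio scaling gave 36.1 and 7.42 for the adult against E10.5 and left these 3 at -2.36, -2.03 and -1.97.

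At least 20 fragments, chosen after seeing the data, gave 15.7 higher in the adult than in the newborn. With a minimum of 10 FPKM the share highest in the newborn was 10.4%, that at 1 stage only 9.09%, that sharing an identifier interval 9.09%, the median span 4831 bases and the number on chromosome 9 2. The median span was 1743 bases with no minimum and 2827 with 1 locus per interval. At least 1 FPKM at all 5 stages left 215 members. Chromosome 9 held 78 with 1 member per interval and 71 without its run, both chosen after seeing the data. The share higher in the adult within 1 kb of an identifier locus was 37.1% with a minimum of 2, also chosen after seeing the data, against 73.8% at 100 kb or more. In all, 125 of 203 recomputed summary values stayed within a set ratio of the reported value, which is not the 2-fold limit. That ratio is wide: 99.5% of called members higher, beside 83.4% as reported, counted as within it. Of 280 recomputed values of named members, 265 kept their call by the 2-fold rule, 12 moved and 3 turned sign. Settings that kept only members alone in their interval, or that left out loci over 10000 FPKM, were also chosen after seeing the data. In both adult comparisons 62.5% to 99.5% of the members past the limit were higher, against 42.6% to 97.9% of all loci past it. The entry of members through the adult alone is part of these shares. The 99.5%, without mitochondrial loci, stood beside 97.9% of all loci. With at least 20 fragments the shares were 75.6% against 68.3% for E10.5 and 70% against 62.7% for the newborn. All loci in that setting were the 313 members plus 114 identifier loci, so the members were mostly set against themselves. The 114 identifier loci taken alone split into 24 higher and 24 lower for E10.5. For the newborn they split into 15 higher and 17 lower. The share of all members that were higher was not above that of all loci in each setting. For the adult against E10.5 it was 4.72% against 11.1% with a pseudocount of 5, 5.61% against 8.77% with no minimum, 63.4% against 75.2% without mitochondrial loci, and 7.19% against 7.09% with a 4-fold limit. For the adult against the newborn it was 3.17% against 5.07% with a pseudocount of 5 and 3.76% against 4.69% with no minimum. Except where the setting itself changes the loci or the limit, the cause of a moved value was not tested. Short loci and those with few fragments limit single values: 63 members span under 400 bases, and 153 of 466 with whole fragments had fewer than 20.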

Other observations

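Loci without an identifier that stayed under the minimum numbered 7241. Of these 854 were listed at 0 at all 5 stages and 2150 were above 0 at all 5, and their median highest value was 0.215 FPKM. Among the 6387 above 0 at some stage, 41.3% were highest in the adult, 22.3% in the newborn and 14.9% at E10.5. An interval was shared with an identifier locus by 765 (10.6%), against 24.8% of the 1293 expressed members. At a span of 1000 bases 1 fragment equals 0.0658 to 0.0896 FPKM, so these values rest on few fragments and are given as a description.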
